A study of Mus musculus with 2 samples.

Results

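The distal end of mouse chromosome 7 carries an imprinted domain, in which genes are expressed from 1 parental copy. Its 10 genes followed here, in chromosomal order, were H19, Igf2, Ascl2, Cd81, Tssc4, Kcnq1, Kcnq1ot1, Cdkn1c, Slc22a18 and Phlda2. They were chosen by name, with earlier results of these data known, and 10 of 10 are listed among the 22711 genes of both deposited tables. RNA came from immortal mouse embryonic fibroblasts (MEF) of 2 lines, with 1 library each. The PWK-Xi line, whose inactive X chromosome is the PWK copy, is labelled C57BL/6N X PWK/PhJ. The B6-Xi line, whose inactive X is the B6 copy, is labelled PWK/PhJ X C57BL/6N. Both are hybrids of the strains C57BL/6N (B6) and PWK/PhJ (PWK), and the labels do not say which strain gave the mother. Nor do they say whether a line is a clone or how it was made immortal. Each value is an FPKM, a fragment count scaled by transcript length and library size, given for the B6 and the PWK allele separately. How reads were assigned to an allele is not given, so levels of different genes can be compared only as listed. With 1 library per line there is no replicate spread, so no difference below was tested and no order of levels has an error.

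The domain is a textbook case of imprinting. It holds a pair of neighbouring clusters, each ruled by a control region that is methylated on 1 parental copy. In the H19 and Igf2 cluster, the insulator protein CTCF binds the unmethylated maternal copy, so that the maternal chromosome expresses the non-coding RNA H19 and the paternal chromosome expresses Igf2, a fetal growth factor. In the other cluster the long non-coding RNA Kcnq1ot1 is transcribed from the paternal copy, antisense to the potassium channel gene Kcnq1, and silences nearby genes on that copy in cis. Cdkn1c, Phlda2 and Slc22a18 keep this silencing in many tissues, whereas Ascl2, Cd81 and Tssc4, at the outer edge, are known as maternally expressed mainly in the placenta and early embryo.

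The promoters of a gene read from the PWK allele (Kcnq1ot1), of a gene read from the B6 allele (Phlda2) and of a gene read from both (Tssc4) are shown to set beside the allelic values, as RefSeq gives them on GRCm38.p6, a later build than the mm9 of the tables. Each runs 5′ to 3′ on the strand of the gene, from 250 bases before a start site to 50 bases after it, with CpG dinucleotides in capitals. The windows are chr7:143296498-143296797 (minus strand) for Kcnq1ot1, chr7:143502475-143502774 (minus strand) for Phlda2 and chr7:143069118-143069417 (plus strand) for Tssc4.
Kcnq1ot1: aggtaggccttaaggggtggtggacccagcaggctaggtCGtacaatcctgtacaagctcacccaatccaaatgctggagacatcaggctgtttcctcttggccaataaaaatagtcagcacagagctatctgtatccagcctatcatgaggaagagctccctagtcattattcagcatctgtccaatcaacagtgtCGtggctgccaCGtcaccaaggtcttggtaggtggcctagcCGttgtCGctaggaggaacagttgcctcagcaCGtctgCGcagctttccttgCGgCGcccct
Phlda2: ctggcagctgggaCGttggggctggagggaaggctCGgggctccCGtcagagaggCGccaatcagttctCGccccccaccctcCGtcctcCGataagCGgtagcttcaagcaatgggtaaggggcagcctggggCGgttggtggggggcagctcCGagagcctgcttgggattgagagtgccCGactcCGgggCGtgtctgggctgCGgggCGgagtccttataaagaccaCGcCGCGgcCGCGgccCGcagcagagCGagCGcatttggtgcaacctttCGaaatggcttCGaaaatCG
Tssc4: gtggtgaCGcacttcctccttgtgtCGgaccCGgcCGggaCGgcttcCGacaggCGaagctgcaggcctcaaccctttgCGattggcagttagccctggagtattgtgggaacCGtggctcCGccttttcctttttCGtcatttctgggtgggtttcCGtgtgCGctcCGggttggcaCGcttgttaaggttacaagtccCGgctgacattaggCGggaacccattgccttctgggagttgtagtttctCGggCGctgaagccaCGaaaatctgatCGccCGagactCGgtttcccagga

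The Phlda2 window holds 26 CpG and the Tssc4 window 23, and the Kcnq1ot1 window holds 9. Among 32851 promoter windows of the same length the median was 7 CpG, and 16.9%, 21.5% and 45.8% of windows hold at least as many as those of Phlda2, Tssc4 and Kcnq1ot1. A CCAAT box, searched as CCAAT on both strands, occurs 3 times in the Kcnq1ot1 window, all in the direction of transcription, and 1 time each in the windows of Phlda2 and Tssc4, while 37.4% of all windows hold at least 1. A TATA box, searched as TATAAA on both strands, occurs 1 time in the Phlda2 window, not in the other windows shown, and in 13.6% of all windows. Of the 10 genes, 7 have a window in the RefSeq table, and Igf2 has 4.

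In the PWK-Xi line the members known as maternally and as paternally expressed mostly came from different strains. The labels do not name the mother, so an effect of parent and one of strain cannot be told apart here. Of 7 members with at least 1 FPKM, 6 came to at least 90% from 1 strain. H19, Cd81, Cdkn1c and Phlda2, all known as maternally expressed, came from B6. Igf2 and Kcnq1ot1, both known as paternally expressed, came from PWK. Over all 8722 autosomal genes with at least 1 FPKM in this line, 3.29% reached 90% from B6, 1.62% reached 90% from PWK and 4.91% reached it from either strain. The exception was Tssc4, with both alleles. In the B6-Xi line 2 members had at least 1 FPKM, and 1 of them, Cdkn1c, reached 90% from 1 strain, in this case B6. Over 7822 autosomal genes at that level in B6-Xi, 5.41% reached 90% from B6, 9.09% from PWK and 14.5% from either. Below 1 FPKM, Slc22a18 came from B6 and Kcnq1ot1 from PWK in B6-Xi. 3 members were above 0 in both lines, and 2 of these, Cdkn1c and Kcnq1ot1, came from the same strain in both. Among 9547 autosomal genes above 0 in both lines 2.95% did so. The labels write the crosses of the lines in opposite orders, and whether that order gives the mother first is not stated.

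**Figure D1:**
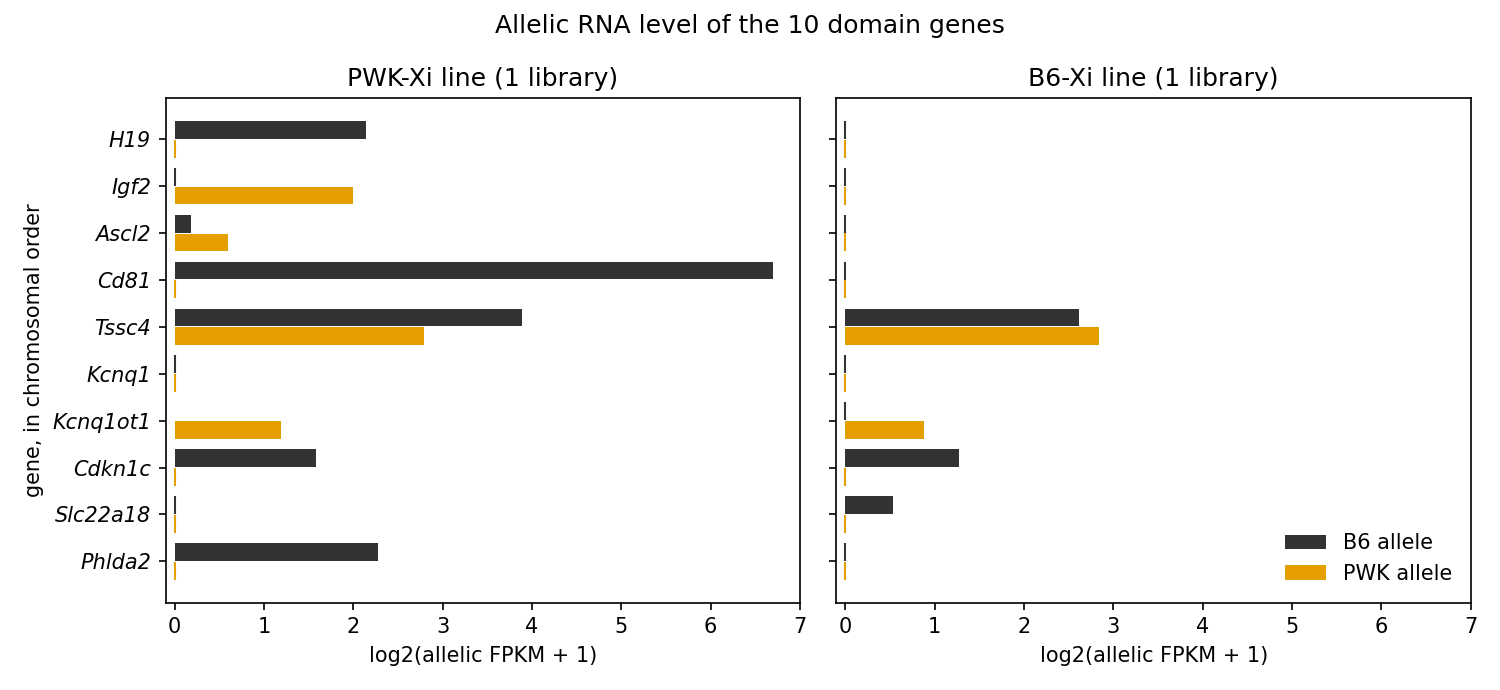
Bars show the level of the B6 allele (dark) and the PWK allele (orange) of each domain gene as log2(allelic FPKM + 1), in the PWK-Xi line (left) and the B6-Xi line (right), 1 library each; a tick marks an allele listed at 0. H19, Cd81, Cdkn1c and Phlda2 have a B6 bar and no PWK bar in PWK-Xi, and 6 of the 10 genes have no bar in B6-Xi.

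In the H19 and Igf2 cluster, RNA was seen in PWK-Xi. H19, which also hosts a microRNA, had 3.43 FPKM from the B6 allele and 0 from the PWK allele in PWK-Xi, and was listed at 0 for both alleles in B6-Xi. Igf2 had 0 from the B6 allele and 2.98 FPKM from the PWK allele in PWK-Xi, and was likewise listed at 0 in B6-Xi. These neighbours thus used opposite strains in PWK-Xi at similar listed FPKM. Over all genes, 12907 were above 0 in PWK-Xi and 10127 in B6-Xi, and the read depth is not given. In bulk RNA, fewer expressing cells, less RNA per cell and a 0 from too few reads cannot be told apart here. Ins2 and Th, which lie between Igf2 and Ascl2 and encode insulin and the first enzyme of catecholamine synthesis, were at 0 in both lines.

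Kcnq1ot1, the silencing RNA of the other cluster, was present in both lines and came from PWK in both. It had 0.00095 FPKM from the B6 allele and 1.28 FPKM from the PWK allele in PWK-Xi, a B6 share of 0.074%. In B6-Xi it had 0 from the B6 allele and 0.839 FPKM from the PWK allele. Its summed level was 1.52 times as high in PWK-Xi. Kcnq1, the channel gene whose body it overlaps on the opposite strand, was listed at 0 for both alleles in both lines.

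Cdkn1c, which encodes the cyclin-dependent kinase inhibitor p57, showed the opposite strain. It had 2.00 FPKM from the B6 allele in PWK-Xi and 1.41 FPKM from the B6 allele in B6-Xi, and 0 from the PWK allele in both. Its summed level was 1.42 times as high in PWK-Xi. Cdkn1c and Kcnq1ot1 were thus the pair of members that came from 1 strain in both lines, at low level and from opposite strains. Among 3269 autosomal genes from 0.5 to under 5 FPKM in both lines, 1.62% came to at least 90% from the same strain in both.

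The remaining genes of the silenced flank were each seen in 1 line. Phlda2, which encodes a pleckstrin homology domain protein that restrains placental growth, had 3.86 FPKM from the B6 allele and 0 from the PWK allele in PWK-Xi, and was listed at 0 in B6-Xi. Slc22a18, which encodes a membrane transporter, was listed at 0 in PWK-Xi and had 0.445 FPKM from the B6 allele and 0 from the PWK allele in B6-Xi. Wherever Cdkn1c, Slc22a18 or Phlda2 was above 0, then, the B6 allele gave 100% of it. For Slc22a18 this rests on a low value in B6-Xi, where shares near the ends were frequent. With the minimum lowered to 0.5 FPKM, 17.5% of autosomal genes there reached 90% from either strain. No such percentage was computed for genes under 0.5 FPKM. Whether 100% at 0.445 FPKM sets Slc22a18 apart can therefore not be said.

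**Figure D2:**
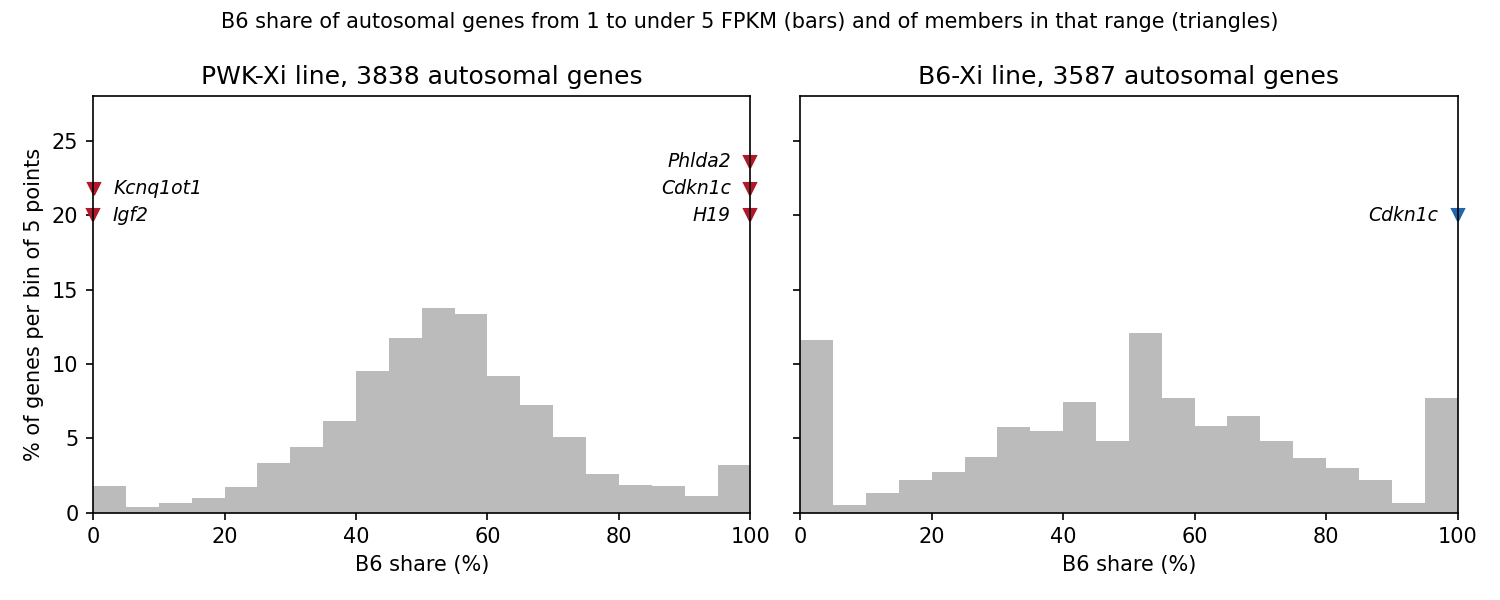
Grey bars show the percentage of autosomal genes from 1 to under 5 FPKM in each bin of B6 share (5 points wide), in PWK-Xi (left, 3838 genes) and B6-Xi (right, 3587 genes); triangles mark the domain genes in that range of level, at their B6 share and at an arbitrary height. The 5 triangles in PWK-Xi lie at the 2 ends of the axis, where 6.62% of these genes have a share of at least 90% from either strain; in B6-Xi 20.7% do.

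The 5 members in the low range of PWK-Xi, from 1 to under 5 FPKM, were H19, Igf2, Kcnq1ot1, Cdkn1c and Phlda2. At this level 4.43% of 3838 autosomal genes reached 90% from B6 and 2.19% reached it from PWK. In B6-Xi shares at the ends were more common. There 8.59% of 3587 genes reached 90% from B6 and 12.2% from PWK, so the 100% of Cdkn1c in B6-Xi sets it less apart than the 100% in PWK-Xi. Shares also moved in coarser steps in B6-Xi: at 1 FPKM or more, 12.8% of genes in PWK-Xi and 47.1% in B6-Xi had a share within 0.001 points of a fraction whose denominator is at most 10.

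At the outer edge of the Kcnq1ot1 cluster the genes differed from each other. Tssc4, which encodes a protein of splicing complex assembly, was the member with the highest level in B6-Xi and the one with both alleles in both lines. It had 13.8 FPKM from the B6 allele and 5.94 FPKM from the PWK allele in PWK-Xi, against 5.14 FPKM from the B6 allele and 6.17 FPKM from the PWK allele in B6-Xi. The PWK allele was thus nearly level between the lines (0.963 times), and the B6 allele was 2.68 times as high in PWK-Xi. The B6 share was 69.9% in PWK-Xi and 45.5% in B6-Xi, 24.5 points apart. A distance at least as large was found for 19.6% of the 3827 autosomal genes that had 5 FPKM or more in each line, where the median distance was 11.4 points.

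Ascl2, a transcription factor gene needed for the placenta's spongiotrophoblast, stayed under 1 FPKM. In PWK-Xi it had 0.137 FPKM from the B6 allele and 0.514 FPKM from the PWK allele, a B6 share of 21.1%, and in B6-Xi it was listed at 0. Among the members known as maternally expressed it was the one with more PWK than B6 RNA in PWK-Xi. Of 13 trophoblast markers, 1 had at least 1 FPKM in each line (Gata3, 6.16 FPKM in PWK-Xi and 4.16 FPKM in B6-Xi), and 7 were at 0 in both lines. The summed level of the list was 7.31 FPKM in PWK-Xi and 4.34 FPKM in B6-Xi. Cdx2, Elf5, Gcm1 and Tpbpa, which define trophoblast, were among those at 0.

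Cd81 stood far above the others in level. This tetraspanin membrane protein gene had 102.98 FPKM from the B6 allele and 0 from the PWK allele in PWK-Xi, and was listed at 0 for both alleles in B6-Xi. It made up most of the 126.2 FPKM of B6 RNA that the 10 members had together in PWK-Xi, where their PWK RNA came to 10.7 FPKM. In B6-Xi the members together had 6.998 FPKM of B6 RNA and 7.01 FPKM of PWK RNA, mostly from Tssc4. Among the 559 genes that lay from 50 to 200 FPKM in PWK-Xi, 16 (2.86%) had a 0 in B6-Xi. Of those 16 genes, 37.5% reached 90% from B6 in PWK-Xi and 18.8% reached 90% from PWK, against 1.92% from B6 of the 522 autosomal genes in that range above 0 in B6-Xi. For genes of this level, a B6 share of at least 90% in PWK-Xi was thus more frequent beside a 0 in B6-Xi. The 37.5% is 6 genes, among them Cd81 itself and the 3 genes nearest to it, named below. For the genes above 0 in B6-Xi, the share past 90% from PWK was not computed.

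The genes nearest to Cd81 over its 4 allelic values, log2(FPKM + 1) of 2 alleles in 2 lines, were Tdh on chromosome 14, Dppa5a on chromosome 9 and Akr1b3 on chromosome 6. Tdh, which encodes threonine dehydrogenase, had 100.4 FPKM from the B6 allele and 0 from the PWK allele in PWK-Xi. Dppa5a, a marker of pluripotent cells, had 134.6 FPKM from the B6 allele and 0.314 FPKM from the PWK allele there. Akr1b3, an aldose reductase gene, had 67.6 FPKM from the B6 allele and 0 from the PWK allele there, and the 3 genes were listed at 0 in B6-Xi. The nearest to Tssc4 were Rnf149, 0610012G03Rik and Adss, with B6 shares of 66.6% to 70.03% in PWK-Xi and 43.8% to 48.9% in B6-Xi.

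Since Tdh and Dppa5a are abundant in embryonic stem cells, a list of 14 stem cell markers was added after these values were seen. Of its genes, 7 had at least 1 FPKM in PWK-Xi and 1 in B6-Xi, with a summed level of 272.5 FPKM in PWK-Xi and 7.03 FPKM in B6-Xi. Dppa5a and Tdh, which led to the list, are among the 7. Of all 22711 genes, 9040 had at least 1 FPKM in PWK-Xi and 8100 in B6-Xi. In PWK-Xi 96.3% of the list's sum came from B6. Without Dppa5a and Tdh the sum was 37.2 FPKM in PWK-Xi, 73.8% of it from B6, and 7.03 FPKM in B6-Xi. Pou5f1, a defining pluripotency factor, had 15.1 FPKM in PWK-Xi, 100% from B6, and was at 0 in B6-Xi. Sox2 had 2.19 FPKM in PWK-Xi, 100% from B6, and was at 0 in B6-Xi. Other members of the list had both alleles in PWK-Xi. Klf4, a factor that fibroblasts also express, had 11.2 FPKM with a PWK share of 57.1% in PWK-Xi, and its 7.03 FPKM, 100% from PWK, made up the whole sum of the list in B6-Xi. Utf1 had 5.798 FPKM with a PWK share of 38.2% in PWK-Xi, and Tdgf1 had 1.48 FPKM with 53.8%. Both were at 0 in B6-Xi. Nanog had 0.360 FPKM in PWK-Xi and was at 0 in B6-Xi, and Zfp42 and Fgf4 were at 0 in both. These B6 transcripts stand in the same library as the B6 RNA of Cd81, H19 and Phlda2. Their part in those values was not tested. Igf2 and Kcnq1ot1 had 0 and 0.00095 FPKM from the B6 allele in that library. Their level in stem cells was not measured here, so these values do not bear on that part.

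In total level, 7 members had 1 FPKM or more in a line. On the log2(FPKM + 1) scale 4 of them lay 2-fold or more higher in PWK-Xi and 0 lay 2-fold or more lower. Over all 9451 genes measured the same way, 18.1% passed 2-fold upward in PWK-Xi and 4.84% passed it downward. The 4 were Cd81, Phlda2, H19 and Igf2, each listed at 0 in B6-Xi, so no fold can be given. A 0 in B6-Xi was found for 7.92% of the 9040 genes that reached 1 FPKM in PWK-Xi. In the range from 1 to under 5 FPKM in PWK-Xi it was found for 11.9%, and for 3 of the 5 members in that range. Among the 454 autosomal genes at 0 in B6-Xi and in that range in PWK-Xi, 33.7% came to at least 90% from 1 strain in PWK-Xi. The median log2 difference was 0.17 over the 8701 genes that were above 0 in both lines and reached 1 FPKM in a line. Relative to it, Tssc4 differed by 0.58, Cdkn1c by 0.15 and Kcnq1ot1 by 0.14.

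**Figure D3:**
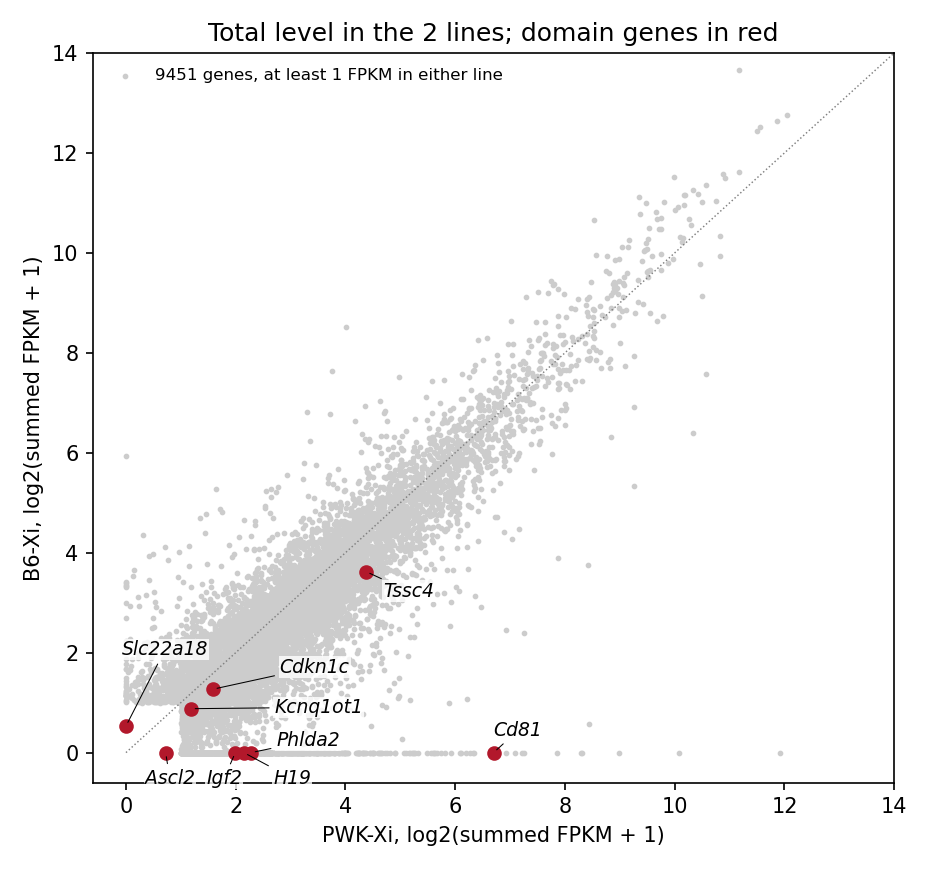
Each grey point is 1 of 9451 genes, placed by log2(summed FPKM + 1) in PWK-Xi (horizontal) and B6-Xi (vertical), and red points are the 9 domain genes above 0 in either line. Cd81, Phlda2, H19, Igf2 and Ascl2 lie on the horizontal axis because they were listed at 0 in B6-Xi, while Tssc4, Cdkn1c and Kcnq1ot1 lie near the dotted line of equal level.

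By listed FPKM within a line, the order in PWK-Xi was Cd81, Tssc4, Phlda2, H19, Igf2, Cdkn1c, Kcnq1ot1 and Ascl2, with Kcnq1 and Slc22a18 at 0. In B6-Xi it was Tssc4, Cdkn1c, Kcnq1ot1 and Slc22a18, with the other 6 at 0. The members seen in both lines kept the order Tssc4, Cdkn1c, Kcnq1ot1.

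The genes beside the domain that had at least 1 FPKM mostly used both alleles. Of the 20 genes on each side, 15 had at least 1 FPKM in PWK-Xi and 14 in B6-Xi, with a median B6 share of 53.3% in PWK-Xi and 58.8% in B6-Xi. The same over all autosomal genes was 52.8% in PWK-Xi and 50.0% in B6-Xi, and over chromosome 7 it was 52.4% in PWK-Xi and 50.0% in B6-Xi. In each line 1 of these neighbours reached 90% from 1 strain. The neighbours above 0 but under 1 FPKM in B6-Xi were Dusp8, Lsp1, Mrgpre, Nadsyn1 and Shank2, named after their values were seen. Dusp8 had 0.336 FPKM with a B6 share of 7.14% in PWK-Xi and 0.368 FPKM with 0% in B6-Xi. Mrgpre had 0.684 FPKM with 62.9% in PWK-Xi and 0.480 FPKM with 50% in B6-Xi. In B6-Xi Shank2 had 0.914 FPKM with a B6 share of 0%, Nadsyn1 0.295 FPKM with 100% and Lsp1 0.687 FPKM with 46.2%. In PWK-Xi the B6 shares of Shank2, Nadsyn1 and Lsp1 were 50.0%, 45.5% and 50.0%. Ctsd, a lysosomal protease gene on the H19 side, had 151.4 FPKM with a B6 share of 51.1% in PWK-Xi and 136.8 FPKM with 52.7% in B6-Xi. Mrpl23, a mitochondrial ribosomal protein gene next to H19 but for Nctc1, had 88.2 FPKM with 37.5% in PWK-Xi and 131.4 FPKM with 35.2% in B6-Xi. Next to Phlda2, the histone chaperone gene Nap1l4 had 16.4 FPKM with 49.5% in PWK-Xi and 15.6 FPKM with 59.3% in B6-Xi. Cars, a cysteinyl-tRNA synthetase gene, had 8.10 FPKM with 51.9% in PWK-Xi and 10.9 FPKM with 52.6% in B6-Xi. The nearest expressed neighbours of H19 and of Phlda2 outside the domain, Mrpl23 and Nap1l4, thus had both alleles in both lines.

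**Figure D4:**
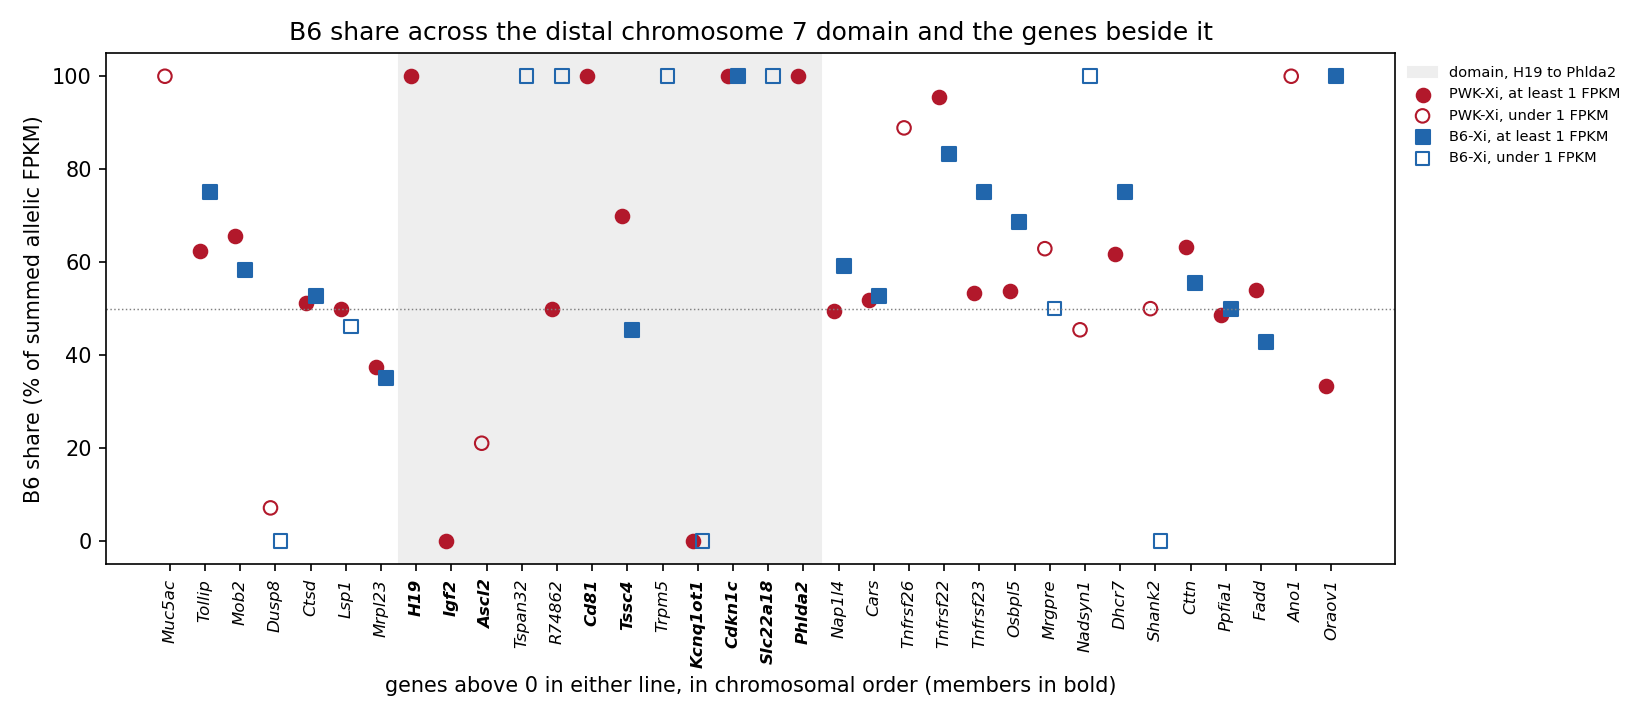
B6 share, in percent of the summed allelic FPKM, of the genes above 0 in either line along the domain (grey) and the 20 listed genes on each side, in chromosomal order with even spacing; circles are PWK-Xi, squares B6-Xi, open symbols genes under 1 FPKM. Neighbours such as Ctsd, Nap1l4 and Cars, at 8.10 FPKM or more, lie between 49.5% and 59.3% in both lines. Mrpl23 lies at 37.5% in PWK-Xi and 35.2% in B6-Xi. Members at or near 0% or 100%, except Cd81, are under 5 FPKM. Neighbours under 5 FPKM reach the ends too: Tnfrsf22 (95.5%) and Ano1 (100%) in PWK-Xi, Shank2 (0%), Nadsyn1 and Oraov1 (100%) in B6-Xi. Others, such as Tollip, Fadd and Mrgpre, lie between 42.9% and 75.0% in both lines. The neighbour Dusp8, under 1 FPKM, lies at 7.14% in PWK-Xi and 0% in B6-Xi.

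Farther out, Tnfrsf22 and Tnfrsf23, which encode decoy receptors of the TNF family, differed. Tnfrsf22 had 2.83 FPKM with a B6 share of 95.5% in PWK-Xi and 1.58 FPKM with 83.3% in B6-Xi. Tnfrsf23 had 10.1 FPKM with 53.3% in PWK-Xi and 2.34 FPKM with 75.0% in B6-Xi. Tnfrsf22 and Oraov1, the neighbours past 90% in PWK-Xi and in B6-Xi, were picked out after their values were seen. Oraov1 had 2.25 FPKM with 33.3% in PWK-Xi and 4.92 FPKM with 100% in B6-Xi. The median log2 difference of the neighbours, relative to the same 0.17, was -0.13. Inside the domain, the 6 genes that are not members stayed low. R74862, which overlaps Cd81 on the opposite strand, had 1.22 FPKM with a B6 share of 50.0% in PWK-Xi and 0.716 FPKM with 100% in B6-Xi. Tspan32 and Trpm5 were at 0 in PWK-Xi and had 0.249 and 0.221 FPKM, 100% from B6, in B6-Xi. Trpm5 overlaps Tssc4 as Kcnq1 overlaps Kcnq1ot1, on the opposite strand. Whether the libraries kept strand is not stated in the labels, so reads within such an overlap cannot be told apart. 4933417O13Rik, a domain gene at 0 in both lines, overlaps Kcnq1 on the opposite strand. Other annotated loci, not used here, overlap H19, Igf2, Kcnq1, Kcnq1ot1 and Cdkn1c.

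Of the 21 listed genes that set or read imprints, 0 were at 0 in PWK-Xi and 2, Ehmt2 and Dnmt3l, were at 0 in B6-Xi. Of the 21, 18 reached 1 FPKM in a line, 3 of them lay 2-fold or more higher in PWK-Xi and 0 lay 2-fold or more lower, beside the 18.1% and 4.84% of all genes. The median log2 difference of the 18, relative to the 0.17 above, was 0.18. The 3, named after their values were seen, were the cohesin genes Stag1 (13.9 FPKM in PWK-Xi and 3.92 FPKM in B6-Xi) and Stag2 (9.30 FPKM in PWK-Xi and 0.702 FPKM in B6-Xi) and the histone methyltransferase gene Ehmt2 (5.65 FPKM in PWK-Xi and 0 in B6-Xi). Trim28, a co-repressor that protects imprints, was the most abundant, with 38.1 FPKM in PWK-Xi and 37.03 FPKM in B6-Xi. The cohesin genes Rad21 and Smc1a had 23.9 and 15.7 FPKM in PWK-Xi and 21.6 and 17.2 FPKM in B6-Xi. Ezh2 and Eed, of Polycomb repressive complex 2, had 17.6 and 13.5 FPKM in PWK-Xi and 12.8 and 13.2 FPKM in B6-Xi.

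Genes that handle the IGF2 protein or its RNA were measured beside Igf2. Of 7 listed, 6 reached 1 FPKM in a line, of which 2 lay 2-fold or more higher in PWK-Xi and 0 lay 2-fold or more lower, beside the same 18.1% and 4.84% of all genes. Igf2bp2, an RNA-binding protein gene, had 20.5 FPKM in PWK-Xi and 6.22 FPKM in B6-Xi. Its relative Igf2bp3 had 5.07 FPKM in PWK-Xi and was listed at 0 in B6-Xi, and Igf2bp1 had 2.36 FPKM in PWK-Xi and 0.886 FPKM in B6-Xi. Igf2r, a scavenger receptor of IGF2 and itself maternally expressed, had 4.94 FPKM in PWK-Xi and 2.39 FPKM in B6-Xi, 100% from B6 in both. Igf1r, the signalling receptor, had 3.59 FPKM with a B6 share of 52.7% in PWK-Xi and 1.93 FPKM with 51.6% in B6-Xi. Of the relatives of Cdkn1c, Cdkn1a had 133.9 FPKM in PWK-Xi and 187.3 FPKM in B6-Xi, and Cdkn1b had 2.96 FPKM in PWK-Xi and 2.65 FPKM in B6-Xi. Cdkn1c was thus below Cdkn1a and Cdkn1b in both lines, in listed FPKM.

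As a check of the labelled cell type, 11 of 12 fibroblast markers had at least 1 FPKM in PWK-Xi and 10 in B6-Xi, among them Col1a1, Col1a2, Pdgfra and Pdgfrb. Their levels differed between the lines. Of the 11, 4 (Dcn, Lum, Pdgfra and Pdgfrb) lay 2-fold or more higher in PWK-Xi and 2 (S100a4 and Col3a1) lay 2-fold or more lower. Over all genes 18.1% and 4.84% did so. Vim was listed at 0 in both lines, so a 0 in these tables does not show that a gene is silent. Of 7 skeletal muscle markers 2 had at least 1 FPKM in PWK-Xi (Mylpf at 3.30 and Des at 2.11 FPKM) and 0 in B6-Xi. Of 6 liver and endoderm markers 0 reached 1 FPKM in either line. Of the 5 immune markers found in the tables, 1, Cd68, did in both lines, at 3.25 FPKM in PWK-Xi and 1.39 FPKM in B6-Xi. Over all genes the B6 alleles summed to 138131 FPKM in PWK-Xi and 140658 FPKM in B6-Xi, and the PWK alleles to 118065 FPKM in PWK-Xi and 144739 FPKM in B6-Xi.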

How the data were processed

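Smart-seq2 libraries of oligo-dT-captured RNA were made, per the labels' protocols. Tools named in the submitters' processing notes are StringTie 2.1.1, HISAT2 2.2.0 and Trim Galore 0.6.4, with build mm9. The authors deposited FPKM values per gene for the B6 and the PWK allele. How reads were assigned to a strain, and the read depth behind each value, are not given in the sources used here, so no counting interval was computed. Lines were grouped by title. The B6 share is the B6 FPKM over the sum of both alleles, without pseudocount, and counts used a summed FPKM of at least 1 and a share of at least 90%. Level differences were log2((PWK-Xi + 1)/(B6-Xi + 1)), which understates low genes. Of 22711 symbols, 22623 matched a chromosome in GENCODE M21 or RefSeq (GRCm38.p6), which gave gene order and no coordinates for the tables. Promoter sequences are RefSeq's.

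Named were the members, the listed genes of the domain (with values for the most abundant), the 5 most abundant regulators and IGF2 genes, and for members of at least 5 FPKM the 3 genes nearest by Euclidean distance. Cell type markers, and genes said to be named after their values were seen, fall outside this rule. The members and lists were chosen with earlier results of these data known. Another minimum, share, pseudocount, fold and scaling were tried. The versions were matplotlib 3.10.9, pandas 2.3.3, numpy 2.4.6 and Python 3.11.15. The computations were tested on simulated data built on genes above 5 FPKM in both lines, which among the members holds for Tssc4 alone. The simulated noise was the same for both alleles, so recovery of the shares was fixed in advance.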

Additional observations from a re-analysis of the deposited data

How the results depend on the processing

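No paired analysis was possible because each line has 1 library, and no replicate could be left out. The low level of the members limits the counts. At a minimum of 5 FPKM, 2 members were left in PWK-Xi (Cd81 and Tssc4) and 1 in B6-Xi (Tssc4), of which 1 (Cd81) and 0 came to at least 90% from 1 strain. At that minimum 3.56% of autosomal genes in PWK-Xi and 9.21% in B6-Xi came to at least 90% from 1 strain. In B6-Xi the count of such members was 2 at 0.5 FPKM, beside 17.5% of autosomal genes, and 3 above 0. A share of 80% or 95% left it at 6 in PWK-Xi and 1 in B6-Xi. The same settings held for 8.89% and 3.70% of autosomal genes in PWK-Xi and for 21.0% and 13.5% in B6-Xi. Members at least 2-fold higher in PWK-Xi numbered 1 (Cd81) with a pseudocount of 5 FPKM, and 1 where 5 FPKM in either line was required. Equal sums or equal medians of the lines, a pseudocount of 0.1 FPKM and the other settings moved no count of members by more than 1.5 times except those named. No value reversed. Scaling the alleles to equal sums moved no member's B6 share by 5 points or more. Read depth is unknown, so what a listed 0 allows cannot be said.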
